A study of Mus musculus with 4 samples.

Results

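The cells described here are the dividing progenitors of an embryonic mouse brain, split into cells in S phase, when DNA is copied, and cells in G2 or M phase, when the cell prepares for and carries out mitosis. Of 1121 cells kept, with at least 1400 genes detected, out of 1141 barcodes, 162 were chosen by a measured value, a cycling sum of at least 5 Illumina UMIs (unique molecular identifiers, each marking a captured mRNA molecule) over Top2a, Mki67, Ube2c, Birc5, Nusap1, Cdk1, Rrm2 and 2810417H13Rik. Of these, 88 were called S cells because Rrm2, 2810417H13Rik, Pcna and Mcm6 together had more UMIs than Ube2c, Birc5, Cenpf and Ccnb1 together. Another 71, in which the order was reversed, were called G2/M cells, and 3 tied cells were left out. The other 959 kept cells stayed under the cycling threshold.

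The suspension was made from brain tissue of an E18 mouse embryo of the C57BL/6 strain, with cortex, hippocampus and subventricular zone combined, and no treatment is named in the labels. A single droplet emulsion was divided into aliquots of 190 and 951 cells, and the cDNA of each was read with Illumina, which counts genes, and with Nanopore long reads, which count isoforms. No group differs by genotype or treatment. The phases are the only groups compared, and the 2 aliquots of each phase serve as its replicates, so the tests cover technical spread, and no second animal was compared.

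Progression through the cell cycle is accompanied by waves of transcription. At the entry to S phase, E2F factors turn on genes for origin licensing, nucleotide synthesis and the replication fork. Later, B-Myb with the MuvB complex, and FoxM1, turn on genes for the spindle, the kinetochore and the kinases of mitosis, many of which carry a cell cycle genes homology region (CHR) and CCAAT boxes in their promoters. In the embryonic forebrain the dividing cells include radial glia, which line the ventricle, and their intermediate progenitor offspring. The dividing cells also include the ventral progenitors that make GABAergic interneurons.

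In the 190-cell aliquot 36 of 186 kept cells (19.4%, 95% exact binomial interval 13.9 to 25.8) passed the cycling threshold, against 126 of 935 (13.5%, 11.3 to 15.8) in the 951-cell aliquot. S cells made up 55.6% of the phased cells in the first (20 of 36, 38.1 to 72.1) and 55.3% in the second (68 of 123, 46.1 to 64.3). The share of S cells was thus alike in both. Summed Illumina UMIs were 309091 and 793280 for the S cells of the 190- and 951-cell aliquot, and 193301 and 819664 for the G2/M cells. The same cells held 172578 and 480452 Nanopore UMIs assigned to an isoform in S, and 112983 and 480000 in G2/M. All such intervals cover counting error only.

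Some cells call for care before the comparisons are read. The aliquots shared 13 barcodes, of which 4 belonged to S or G2/M cells in both, and 3 of those 4 had the same phase in each. A doublet caller marked 7 of the kept cells, 3 of them S cells of the 190-cell aliquot that held 33.6% of that sum's UMIs. In the 951-cell aliquot, 3 G2/M cells with more than 50000 UMIs each held 22.5% of their sum, and none was called a doublet. The counts of genes called are therefore also given without each of these sets.

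The cells of both phases held more UMIs and genes than the cells under the threshold. The cycling threshold of 5 UMIs is not scaled by depth, so deeper cells pass it more easily. How much of the gap comes from this choice of cells was not tested. The median S cell had 10780 Illumina UMIs and 3128 genes, the median G2/M cell 10630 UMIs and 3240 genes, and the median cell under the threshold 7170 UMIs and 2559 genes. S cells had a median of 12110 UMIs in the 190-cell and 9670 in the 951-cell aliquot and G2/M cells 13350 and 10280, so the phases lay closer to each other than the aliquots did. Thinned to 5000 UMIs per cell, with 11 S, 6 G2/M and 232 other cells too shallow to enter, the medians were 2029, 2032 and 2036 genes. At equal depth the 3 groups thus detected nearly the same number of genes. Mitochondrial genes gave 1.82% of UMIs in S, 1.89% in G2/M and 2.33% in the cells under the threshold.

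The 12 genes of the rule set the phases, and their values describe the cells chosen and are not a finding. Pcna, the sliding clamp of the replication fork, had 505 and 478 CPM (UMIs of the gene per 1000000 UMIs of the sum) in the S sums of the 190- and 951-cell aliquot and 87.9 and 87.8 in the G2/M sums. Ube2c, the ubiquitin-conjugating enzyme of the anaphase-promoting complex, had 268 and 173 CPM in S and 2209 and 1136 in G2/M. Top2a, the topoisomerase that untangles replicated DNA, counts toward cycling but toward neither phase. Its 502 and 533 CPM in S overlapped 683 and 468 in G2/M.

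The phases were not sharply divided in single cells. Of the S cells, 47 carried at least 5 UMIs of the G2/M genes and 13 carried none. Of the G2/M cells, 51 carried at least 5 UMIs of the S genes and 3 carried none. The phase sums differed by a single UMI in 10 cells. At the cycling threshold, 9 cells had a sum of exactly 5 UMIs and 7 cells just outside it had 4, while 588 of the cells left out had 0.

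**Figure D1:**
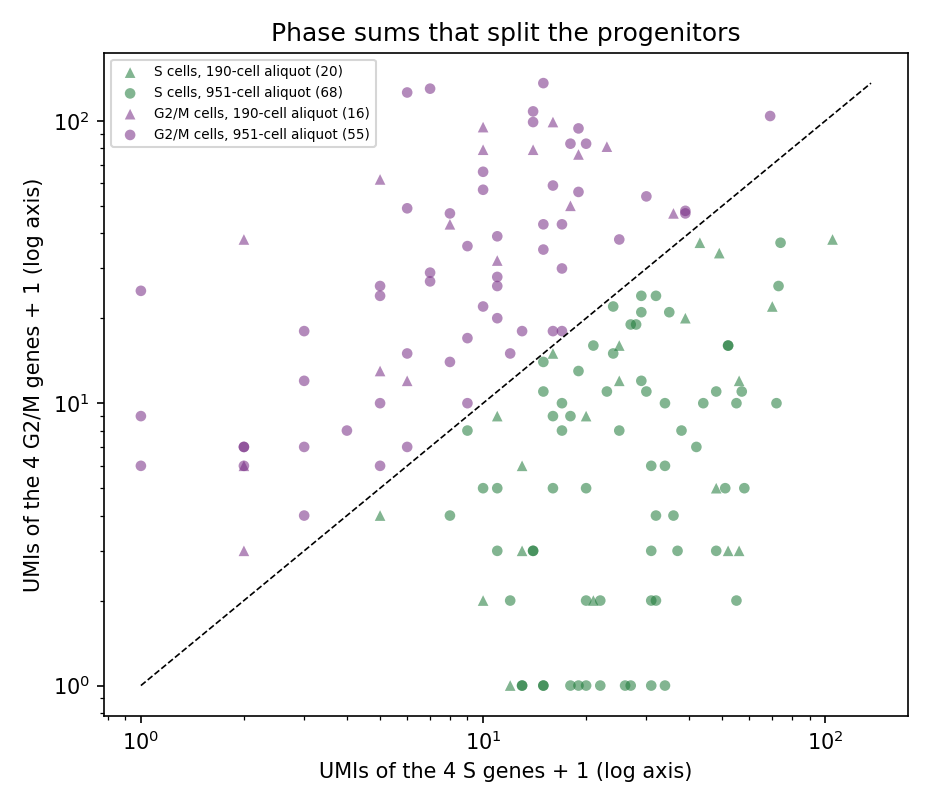
UMIs of the 4 S genes (x axis) and of the 4 G2/M genes (y axis) in each of the 159 phased cells, both plus 1 on log axes, with triangles for the 190-cell and circles for the 951-cell aliquot and the dashed line where the sums are equal. Cells of both aliquots lie on both sides, and many cells carry UMIs of both gene groups; the rule itself fixes the side.

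The question put to the other genes was which of them differed between the sums of S and of G2/M cells. The rule did not use their counts, but they were counted in the same cells, so their tests describe what went with the split. With edgeR's quasi-likelihood test and Benjamini-Hochberg adjustment over 6393 genes outside the rule, 32 genes were higher in S (0.501% of genes tested) and 38 were higher in G2/M (0.594%). Each of the 70 kept its direction in either aliquot, and for each the S and G2/M sums did not overlap, as was so for 38.4% of all genes tested. With the aliquot as a block, 129 genes were higher in S (2.02%) and 146 in G2/M (2.28%), among them all 70. The count was 148 without the called doublets, 117 without the shared barcodes and 109 without the cells over 50000 UMIs, each again with all 70. Without cells bearing at least 2 UMIs of the ventral markers Dlx1, Dlx2, Dlx6os1 and Gad2, which left 41 S and 38 G2/M cells, it fell to 18, 16 of them among the 70, and all 67 of the 70 that could be tested had the same direction.

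Genes that license origins for replication were higher in S. Cdc6 (chr11:98907709-98923942, RefSeq, GRCm38.p6), which with the origin recognition complex loads the MCM helicase, had 32.4 and 47.9 CPM in the S sums of the 190- and 951-cell aliquot and 0.0 and 3.66 in G2/M. That is 48 UMIs against 3, a ratio of 14.7 with a counting interval of 4.74 to 73.8 (adjusted p = 0.0130). A UMI of Cdc6 was found in 34.1% of S cells, 2.82% of G2/M cells and 1.04% of cells under the threshold. Its loading partner Cdt1 had 67.9 and 90.8 CPM in S and 0.0 and 13.4 in G2/M (log2 fold change, S minus G2/M, 2.96 ± 0.51 SE, adjusted p = 0.0123). Gins2, a subunit of the GINS complex that activates the helicase, had 74.4 and 135 CPM against 10.3 and 28.1, a log2 fold change of 2.22 ± 0.41. The G2/M sums of Gins2 rested on 2 and 23 UMIs. In these 3 genes both S sums were above both G2/M sums, and the sums of the phases did not overlap in 38.4% of all genes tested.

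Of the 16 tested members of the MCM helicase and origin licensing list, 6 were called higher in S and none in G2/M, with a median log2 fold change of 1.43 against 0.001 over all genes tested. The blocked fit called 11 of the 16, all higher in S, against 2.02% of all genes tested. This list and those below were chosen with earlier results of these data known, so their counts and medians are descriptions. Over all genes tested, 0.501% were called higher in S and 0.594% higher in G2/M, and 3202 of 6393 had a positive fold change. The other called members were the helicase subunits Mcm2 (1.88), Mcm3 (1.92) and Mcm5 (1.77). Mcm5 had 155 and 219 CPM in S and 46.6 and 61.0 in G2/M. Of the most abundant members, the helicase subunit Mcm7 (0.86, adjusted p = 0.33) and Gmnn, which keeps Cdt1 from licensing DNA again (0.91, adjusted p = 0.0937), were called only with the aliquot as a block (adjusted p = 0.00173 and 0.00424).

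The replication fork contributed the most S-high genes. Of 24 tested members, 9 were called higher in S, and all 24 had a positive fold change (median 1.32). The blocked fit called 17 of the 24. Lig1 (chr7:13277175-13311426), the ligase that joins Okazaki fragments, rose from 51.7 and 78.1 CPM in the G2/M sums of the 190- and 951-cell aliquot to 249 and 368 in S (2.19 ± 0.26, adjusted p = 0.00159), and was found in 93.2% of S cells, 52.1% of G2/M cells and 14.1% of cells under the threshold. Rpa1, a subunit of the complex that coats single-stranded DNA, had 80.9 and 74.4 CPM in S and 15.5 and 19.5 in G2/M (2.06 ± 0.37). The cells under the threshold held 25.3 and 19.96 CPM of Rpa1, so its G2/M level was no higher than theirs. Its partner Rpa2, with 204 and 277 CPM in S, was called as well (2.00 ± 0.25). The remaining called members were the primase subunits Prim1 and Prim2, the clamp loaders Rfc1 and Rfc2, and Clspn and Tipin of the fork protection and checkpoint machinery, with log2 fold changes from 1.16 for Rfc1 to 1.89 for Prim1.

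Enzymes that supply nucleotides followed, with 5 of 14 tested members called higher in S, none in G2/M and a median of 0.99 (7 called with the block). Tyms, the thymidylate synthase, had 301 and 334 CPM in S and 62.1 and 101.3 in G2/M (1.88 ± 0.24). Dut, which removes dUTP, was the most abundant of the list, at 569 and 682 CPM in S and 233 and 255 in G2/M (1.37 ± 0.17). The thymidine kinase Tk1 (1.49) and the dCTP pyrophosphatase Dctpp1 (1.16) were also called.

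Chromatin assembly behind the fork had 5 of 12 tested members called higher in S, all 12 with a positive fold change and a median of 1.55, and 9 were called with the block. Chaf1b, a subunit of chromatin assembly factor 1, had 126 and 106 CPM in S and 20.7 and 17.1 in G2/M (2.68 ± 0.35, adjusted p = 0.00209). Slbp, which binds the 3′ stem-loop of replication-dependent histone mRNAs, had 243 and 352 CPM in S and 51.7 and 82.96 in G2/M (2.07 ± 0.27). The maintenance methyltransferase Dnmt1 (1.603), the remodeller Hells (2.03) and the histone acetyltransferase Hat1 (1.4995) completed the called members. In all 5 the lower S sum exceeded the higher G2/M sum, as the sums of the phases did not overlap in any of the 70 called genes. The same held for 38.4% of all genes tested.

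Single called members came from the lists of DNA repair and of G1/S regulators. Rad54l, a helicase of homologous recombination, had 84.1 and 83.2 CPM in S and 25.9 and 17.1 in G2/M (2.12 ± 0.37), the 1 called of 13 tested repair and checkpoint genes, of which 12 had a positive fold change. In the blocked fit 5 of these 13 were called higher in S. E2f1, an activator of S phase genes, had 210 and 226 CPM in S and 36.2 and 68.3 in G2/M (1.92 ± 0.27), and was the 1 called of 14 tested G1/S genes, against 6 with the block. Of the S-high genes, 4 were in none of the lists. They were Tcf19 (2.45 ± 0.35), a nuclear protein with 123 and 131 CPM in S and 10.3 and 28.1 in G2/M, the chromatin protein Dek (0.80), the RNase H2 subunit Rnaseh2a (1.49) and the LIM protein Csrp1 (1.67).

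Replication-dependent histone genes, whose mRNAs end in a stem-loop without a poly(A) tail, are poorly captured by a poly(A)-primed library. Of 18 tested, none was called by edgeR's quasi-likelihood test, with a median of 0.68 in log2 fold change and 15 of 18 positive. With the aliquot as a block, 5 were called higher in S and 1, Hist1h2bc, higher in G2/M. Hist1h2ae, the most abundant, had 595 and 517 CPM in the S sums of the 190- and 951-cell aliquot and 476 and 231 in G2/M (log2 0.72, adjusted p = 0.657). In both aliquots its S sum was the higher, the G2/M sums stood further apart than the S sums, and it was among the 5 called with the block (adjusted p = 0.000207). Their near-identical copies share sequence, so the split of reads among them is uncertain.

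The genes higher in G2/M were led by parts of the spindle. Tuba1c (chr15:99029891-99038105), an alpha-tubulin, had 398 and 215 CPM in the G2/M sums of the 190- and 951-cell aliquot and 22.6 and 12.6 in S, with a log2 fold change (S minus G2/M) of -4.17 ± 0.41 and an adjusted p of 0.00124. Tubulin genes are close copies of each other, which makes the counts of each uncertain. Of 34 tested members of the list of the spindle, kinesins and cytokinesis, 14 were called higher in G2/M and none in S. Their median was -1.57, and 25 were called with the aliquot as a block. Over all genes tested, 0.594% were called higher in G2/M, and 2.28% with the block. Arl6ip1, a membrane protein of the endoplasmic reticulum placed in this list, was the most abundant of the called members, at 1774 and 1272 CPM in G2/M and 343 and 297 in S (-2.23 ± 0.19). It was also present at 313 and 312 CPM in the cells under the threshold, close to its S level. Kif2c, a microtubule-depolymerising kinesin, had 181 and 122 CPM in G2/M and 25.9 and 29.0 in S (-2.35 ± 0.32). The spindle assembly factors Hmmr, Tacc3 and Tpx2, the midzone proteins Prc1 and Racgap1, the beta-tubulin Tubb4b and the centrosomal Nde1 were among the rest, between -1.20 for Prc1 and -2.09 for Hmmr.

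At the centromere, 4 of 23 tested members were called, all higher in G2/M (median -0.63). With the block it was 7 higher in G2/M and 1 higher in S. Cenpa (chr5:30666877-30674837), the histone H3 variant that marks the centromere, had 714 and 595 CPM in G2/M and 74.4 and 69.3 in S (-3.17 ± 0.20, adjusted p = 5.32e-06). It was found in 94.4% of G2/M cells, 42.0% of S cells and 8.03% of cells under the threshold. Knstrn, a kinetochore-bound spindle protein, had 393 and 267 CPM in G2/M and 51.8 and 60.5 in S (-2.48 ± 0.26). The kinetochore motor Cenpe (-1.92) and Cdca8 of the chromosomal passenger complex (-0.90) were the others.

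Among the mitotic cyclins and kinases, 5 of 21 tested were called, all higher in G2/M (median -0.77), and 12 with the aliquot as a block. Ccnb2, a B-type cyclin, had 295 and 295 CPM in G2/M and 74.4 and 34.0 in S (-2.55 ± 0.32, adjusted p = 0.00229). Cdc25c, the phosphatase that activates Cdk1, had 93.1 and 89.1 CPM in G2/M and 12.9 and 18.9 in S (-2.39 ± 0.37). Both G2/M sums of each gene were almost equal. Cdc25b (-1.94), Aurka, a kinase of the spindle poles (-1.63), and Cks2, which binds cyclin-dependent kinases (-2.13), were also called.

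Of 15 tested genes of the anaphase-promoting complex and its targets, 2 were called, both higher in G2/M, and 4 with the block. Cdc20, the activator, had 688 and 515 CPM in G2/M and 51.8 and 46.6 in S (-3.59 ± 0.23, adjusted p = 5.32e-06), with a UMI in 85.9% of G2/M cells and 36.4% of S cells. Cdkn3, a phosphatase that acts on cyclin-dependent kinases, had 109 and 68.3 CPM in G2/M and 16.2 and 6.30 in S (-3.09 ± 0.50). The median over the list was -0.16.

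Of the G2/M-high genes, 11 belonged to none of the lists. Pif1, a DNA helicase, had 46.6 and 29.3 CPM in G2/M and 0.0 and 2.52 in S, that is 33 UMIs against 2, a ratio of 17.96 with a counting interval of 4.59 to 154. Cep89, a protein of the centriole's distal appendages, had 87.9 and 72.0 CPM in G2/M and 12.9 and 6.30 in S (-3.16 ± 0.46). Fam64a, now named Pimreg, had 409 and 271 CPM in G2/M and 61.5 and 65.6 in S (-2.35 ± 0.25). The others were Cdca3, which marks Wee1 for degradation, the microtubule-associated Psrc1, the noncoding RNA Lockd, Miip, Tmem138, the dynein light chain Dynll1, the chaperone Hsp90b1 and the heterochromatin protein Hp1bp3, between -0.96 and -2.03. Dynll1, at 1511 and 1398 CPM in G2/M and 806 and 647 in S, lay at 1139 and 1164 in the cells under the threshold, so the S sums were the lowest, a contrast with those cells that was not tested.

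**Figure D2:**
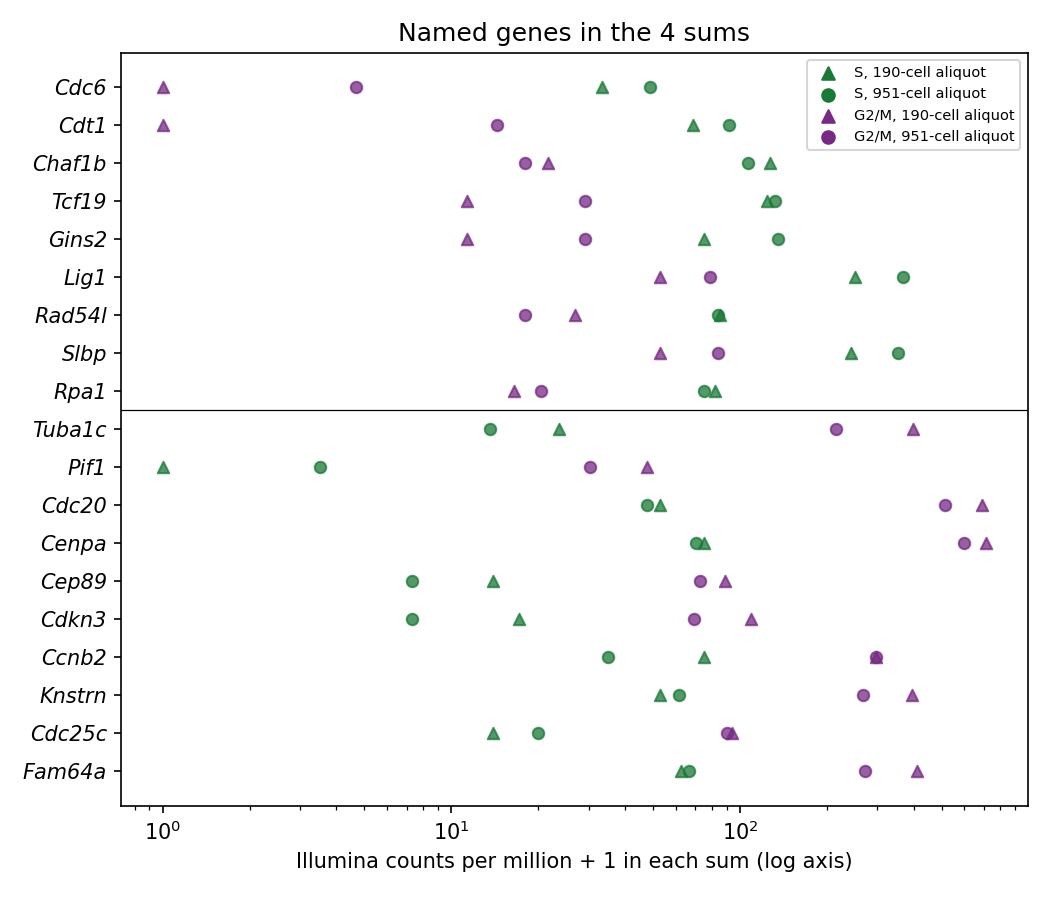
CPM plus 1 (x axis, log scale) of 19 of the 20 genes with the largest fold changes, 9 higher in S and 10 higher in G2/M, with green for S, purple for G2/M, triangles for the 190-cell and circles for the 951-cell aliquot. In each row both symbols of one colour lie on the same side of both symbols of the other; Cdc6 and Cdt1 have a G2/M sum at 0 and Pif1 an S sum at 0.

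Few chromatin proteins outside the replication lists were called. Of 16 tested histone variants and high mobility group (HMG) proteins, only Hmgn3 was called, at 341 and 417 CPM in the G2/M sums of the 190- and 951-cell aliquot and 188 and 206 in S (-0.94 ± 0.19), and the block gave 3, all higher in G2/M. H2afz, the most abundant, had 5075 and 3887 CPM in G2/M and 3442 and 3791 in S (adjusted p = 0.594). In condensin and cohesin only the cohesin subunit Rad21 of 15 tested was called, higher in G2/M (-1.11 ± 0.22), and the list's median was 0.05. With the block, 2 of its genes were called higher in S and 2 higher in G2/M. In the nuclear envelope and lamina, Ranbp1, a regulator of the Ran GTPase, was the only 1 of 11 called, higher in S with 1158 and 1156 CPM against 595 and 638 (0.93 ± 0.15), and the block called 1 in each direction. Of the mitotic transcription factors none of 6 tested was called. Among them were Mybl2 (2.13, adjusted p = 0.167, and 0.00189 with the aliquot as a block) and Foxm1 (-1.26, adjusted p = 0.653).

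**Figure D3:**
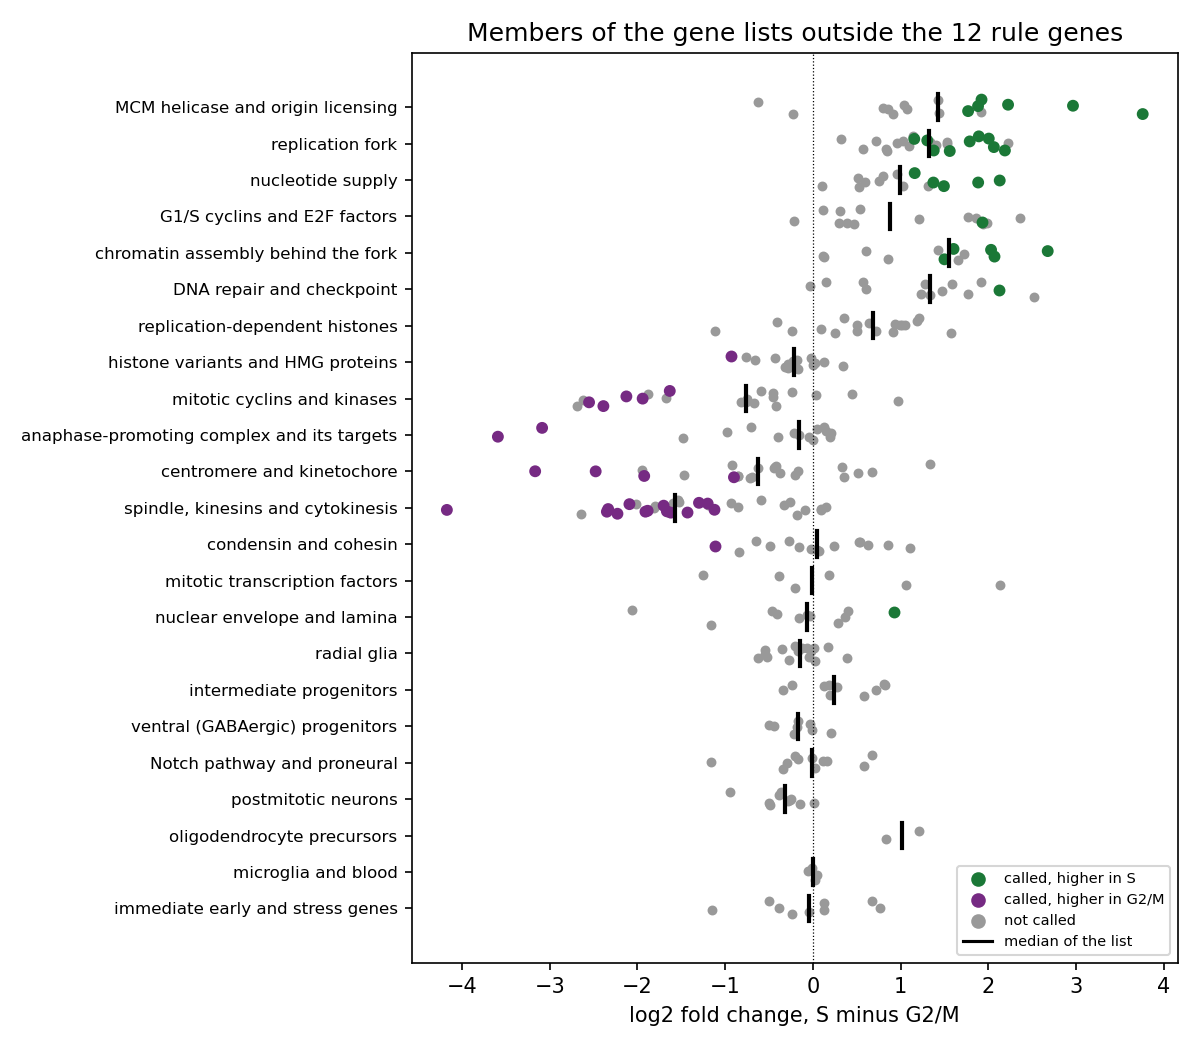
Log2 fold change (S minus G2/M, x axis) of each tested member of 23 of the gene lists, with called members in green (higher in S) or purple (higher in G2/M), others in grey and the list median as a bar. The medians of the lists of licensing, fork, nucleotides and chromatin assembly lie between 0.99 and 1.55, that of the spindle at -1.57, and no member of a lineage list is called. The lists were chosen with earlier results of these data known.

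Lineage lists were examined in the same fit, since S and G2/M cells could differ in the kind of progenitor. None of the 16 radial glia, 10 intermediate progenitor, 8 ventral progenitor, 11 Notch or 10 postmitotic neuron genes tested was called by edgeR's quasi-likelihood test. That 0 did not hold in every setting. With the aliquot as a block, 1 radial glia gene was called higher in G2/M and 2 intermediate progenitor genes higher in S. Without the called doublets, 1 radial glia and 1 neuron gene were called higher in G2/M and 1 intermediate progenitor gene higher in S. Leaving out the G2/M sum of the 190-cell aliquot gave 4 radial glia genes higher in G2/M, and leaving out that of the 951-cell aliquot gave 1 ventral and 2 neuron genes higher in G2/M. Summed ventral markers were 857 and 882 CPM in the S sums of the 190- and 951-cell aliquot and 1557 and 634 in G2/M, so the order of the phases differed between the aliquots. Cells with at least 2 UMIs of the 4 ventral markers were 60.0% of S and 62.5% of G2/M cells in the 190-cell aliquot and 51.5% and 41.8% in the 951-cell aliquot. Cells with at least 2 UMIs of Eomes, Neurog2 and Neurog1 were 6 of 20 S and 3 of 16 G2/M cells in the 190-cell aliquot and 20 of 68 and 19 of 55 in the 951-cell aliquot. The median log2 fold change was -0.15 for radial glia, 0.24 for intermediate progenitors, -0.18 for ventral progenitors, -0.007 for Notch and -0.32 for postmitotic neurons. Higher in G2/M were 12 of 16 radial glia, 7 of 8 ventral, 6 of 11 Notch and 9 of 10 neuron genes. Higher in S were 8 of 10 intermediate progenitor genes. Without the cells bearing these intermediate progenitor markers, 100 genes were called between the phases, 60 of them among the 70, against 18 without the ventral-marker cells. The former left 14 and 48 S and 13 and 36 G2/M cells in the 190- and 951-cell aliquot, with 3944 genes tested. The latter left fewer cells, 8 and 33 S and 6 and 32 G2/M, with 4776 genes tested. The part of lineage in the phase results was not tested further.

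Radial glia genes were present in both phases, with a summed level of 8512 and 7976 CPM in S, 8246 and 13980 in G2/M and 1924 and 2200 in the cells under the threshold. Fabp7, the brain fatty acid binding protein, had 2488 and 2272 CPM in S, 2907 and 4049 in G2/M and 395 and 624 in cells under the threshold (log2 -0.53, adjusted p = 0.199, and 0.0153 with the aliquot as a block), and the 3 cells over 50000 UMIs held 36.1% of its UMIs in the higher G2/M sum. Dbi, the acyl-CoA binding protein, had 2430 and 2326 CPM in S and 2095 and 5301 in G2/M. Its G2/M sums lay on both sides of the S sums, and the same 3 cells held 55.5% of its UMIs in the higher sum. Hes6 and Btg2 were the 2 intermediate progenitor genes called higher in S with the aliquot as a block, and are named after that call. Hes6 had 288 and 325 CPM in S and 150 and 198 in G2/M (edgeR adjusted p = 0.00349 with the block and 0.105 without it). Btg2 had 178 and 200 CPM in S and 87.9 and 134 in G2/M (0.0486 and 0.265). Gadd45g and Elavl2 were, with Hes6, the most abundant of the list. A UMI of Gadd45g was found in 73.9% of S and 70.4% of G2/M cells, and one of Elavl2 in 59.1% and 69.0%.

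Markers of postmitotic neurons, which should not be cycling, and of other cell types were also counted. Postmitotic neuron genes summed to 2682 and 2114 CPM in S, 3709 and 2346 in G2/M and 9807 and 9545 in the cells under the threshold. Per cell, the median level of the neuron list was higher in G2/M than in S in both aliquots, at 31.6 against 11.7 UMIs per 10000 in the 190-cell and 34.8 against 11.98 in the 951-cell aliquot. The cells of either phase were widely spread, with quartiles of 6.42 and 44.4 UMIs per 10000 over all S cells and 7.37 and 55.4 over all G2/M cells. This difference between the phases and its part in the results above were not tested. Blood and microglia genes, nearly all of it haemoglobin, summed to 660 and 558 CPM in S, 755 and 528 in G2/M and 670 and 660 in the cells under the threshold. Haemoglobin thus stood at similar levels in groups that should not express it. Of the microglia markers Cx3cr1, P2ry12 and C1qb were at 0 in all 4 sums. Of 9 endothelial and mural markers, 4 were at 0 in all 4 sums and none passed the filter on low counts. Of the oligodendrocyte precursor list, only Olig1 and Olig2 passed it, and neither was called between S and G2/M. A UMI of Olig2 was found in 18.2% of S, 19.7% of G2/M and 1.56% of cells under the threshold. For Olig1 it was 12.5%, 8.45% and 1.67%. The list summed to 175 and 129 CPM in S and 41.4 and 87.8 in G2/M. In the cells under the threshold it summed to 1.53 and 14.1, a contrast that was not tested. Of 9 tested immediate early and stress genes none was called, and 1 was called higher in G2/M with the block.

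The promoters of the called genes were then searched for 3 short motifs on both strands, since E2F sites and CHR elements are known in genes of these phases. RefSeq promoters on GRCm38.p6, of 300 bases running from 250 before to 50 after the start, were matched for 27 S-high, 32 G2/M-high and 5066 tested genes, and where a gene had several starts the one nearest to its most abundant Nanopore isoform was taken. An E2F match (TTTCGCGC or TTTGGCGC) was found in 5 of 27 S-high promoters (18.5%), 0 of 32 G2/M-high promoters and 2.13% of all. The E2F motifs share their last bases. A CHR match (TTTGAA or TTCGAA) was found in 3 of 27 S-high promoters (11.1%), 21 of 32 G2/M-high promoters (65.6%) and 13.9% of all. A CCAAT box was found in 59.3%, 87.5% and 40.6%. A CHR match and a CCAAT box together were found in 20 of 32 G2/M-high promoters (62.5%) against 11.1% of S-high promoters and 6.36% of all. A match in this window is a description of the letters and not of a bound site.

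**Figure D4:**
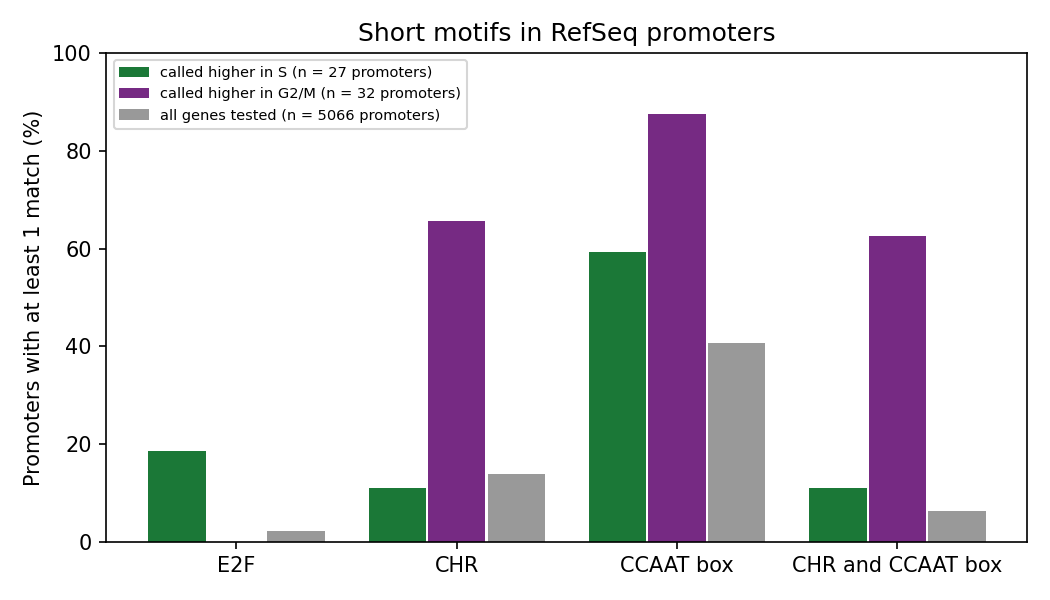
Share of promoters with at least 1 match (y axis, percent) for each motif, in called S-high genes (green), called G2/M-high genes (purple) and all genes tested (grey). CHR matches stand at 65.6% in G2/M-high promoters against 13.9% of all, and E2F matches at 18.5% in S-high promoters against 2.13% of all.

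The 5 S-high genes with an E2F match are shown as 30 bases around the match nearest to the start, on the gene's strand and 5′ to 3′, with the match in capitals, because they carry the E2F share given above. The stretches were selected after the matches were seen.
Lig1: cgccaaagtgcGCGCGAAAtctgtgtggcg
Mcm5: caagaactttcGCGCCAAAacgtccagcct
Mcm3: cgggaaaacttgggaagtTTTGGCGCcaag
Clspn: accgcgtctggGCGCGAAAgctcgaacttc
Cdt1: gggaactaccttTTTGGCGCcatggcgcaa
These stretches lie at chr7:13278841-13278870 (plus strand) for Lig1, chr8:75109349-75109378 (plus) for Mcm5, chr1:20820263-20820292 (minus) for Mcm3, chr4:126556990-126557019 (plus) for Clspn and chr8:122568035-122568064 (plus) for Cdt1. The match begins 149 bases before the start in Mcm5 and between 21 and 38 bases after the start base in the others.

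Of the 21 G2/M-high genes with a CHR match, 7 of the 8 with the most Illumina UMIs are shown in the same way, with the CHR in capitals.
Tubb4b: gcaaatcaatcaTTTGAAacacccaatgga
Lockd: tcgcgcctgcagTTTGAAtttttttttttt
Cenpa: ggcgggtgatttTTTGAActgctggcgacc
Cdc20: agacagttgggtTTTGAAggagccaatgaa
Prc1: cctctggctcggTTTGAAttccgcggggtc
Cdca3: cgtggagggaagTTTGAAactccgggcttt
Racgap1: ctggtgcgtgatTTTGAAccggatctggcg
All 7 read TTTGAA on the gene's strand. The stretches lie at chr2:25224883-25224912 (minus strand) for Tubb4b, chr6:134928885-134928914 (plus) for Lockd, chr5:30666890-30666919 (plus) for Cenpa, chr4:118437344-118437373 (minus) for Cdc20, chr7:80294434-80294463 (plus) for Prc1, chr6:124830194-124830223 (plus) for Cdca3 and chr15:99651634-99651663 (minus) for Racgap1. Over all 21 genes there were 23 matches, of which 16 began within 50 bases of the start, whereas the matches of Tubb4b and Lockd began 198 and 195 bases before it.

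Of the 4 genes with the most UMIs among the 10 leading genes of each direction, 6 are shown in full from 150 bases before the start up to it, with every match in capitals. They show how far the motifs vary from gene to gene.
Lig1: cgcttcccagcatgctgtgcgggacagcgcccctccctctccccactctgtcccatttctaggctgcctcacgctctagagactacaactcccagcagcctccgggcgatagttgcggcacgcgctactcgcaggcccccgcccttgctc
Slbp: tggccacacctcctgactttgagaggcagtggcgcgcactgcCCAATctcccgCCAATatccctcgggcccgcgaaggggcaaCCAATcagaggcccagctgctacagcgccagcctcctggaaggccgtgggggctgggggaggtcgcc
Tcf19: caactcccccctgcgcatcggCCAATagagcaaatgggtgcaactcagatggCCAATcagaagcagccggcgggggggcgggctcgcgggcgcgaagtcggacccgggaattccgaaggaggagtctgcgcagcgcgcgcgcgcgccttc
Cenpa: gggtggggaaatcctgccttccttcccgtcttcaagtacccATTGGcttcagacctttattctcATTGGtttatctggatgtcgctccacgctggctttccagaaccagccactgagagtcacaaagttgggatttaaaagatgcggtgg
Cdc20: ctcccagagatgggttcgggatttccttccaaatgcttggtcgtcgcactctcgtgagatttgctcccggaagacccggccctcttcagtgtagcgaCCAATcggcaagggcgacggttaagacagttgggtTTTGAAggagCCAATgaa
Knstrn: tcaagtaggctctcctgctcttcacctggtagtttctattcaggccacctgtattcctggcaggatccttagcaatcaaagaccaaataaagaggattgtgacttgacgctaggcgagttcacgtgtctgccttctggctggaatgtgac
They lie at chr7:13278676-13278825 (plus strand) for Lig1, chr5:33652575-33652724 (minus) for Slbp, chr17:35516825-35516974 (minus) for Tcf19, chr5:30666736-30666885 (plus) for Cenpa, chr4:118437344-118437493 (minus) for Cdc20 and chr2:118813853-118814002 (plus) for Knstrn. ATTGG is the CCAAT box on the opposite strand. Lig1 and Knstrn held no match in this stretch, Slbp held 3 CCAAT boxes, and Cdc20 held TTTGAA between 2 CCAAT boxes close to the start. Fam64a, another of these genes, is named only.

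Nanopore counts cover a part of the same molecules at the level of isoforms, since barcodes and UMIs were assigned with the Illumina data as a guide, and so are not an independent replicate. The UMIs assigned to an isoform came to 59.2% of the Illumina UMIs in S cells and 58.5% in G2/M cells. By edgeR's quasi-likelihood test, 54 of 3799 isoforms tested were higher in S (1.42%) and 56 in G2/M (1.47%), from 107 genes in all. With the aliquot as a block the total was 197, and with the DESeq2 Wald test 34. Summed over isoforms, 140 of 3707 genes were called (3.78%). Of the 66 genes called in Illumina that could be tested in these sums, all 66 had the same direction and 61 were called again. The others were Clspn, Dek, Hp1bp3, Lig1 and Tmem138, with an edgeR adjusted p from 0.0672 for Tmem138 to 0.252 for Lig1.

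The leading isoforms belonged mostly to genes already described. Of the 107 genes with a called isoform, 59 were among the 70 called in Illumina, and Uhrf1 and Dscc1 below were not. Cdc6-201 had 8 and 29 UMIs in the S sums of the 190- and 951-cell aliquot and none in G2/M (edgeR adjusted p = 0.00133). Set against a floor of 3 UMIs over the group it was 11.2-fold higher, and the counting interval of its ratio began at 8.66. Uhrf1-201, of the protein that brings Dnmt1 to newly copied DNA, had 46 UMIs in S and 3 in G2/M, a ratio of 13.9 with a counting interval of 4.48 to 70.0. Dscc1-201, of a clamp loader subunit that acts in cohesion, had 40.6 and 72.8 CPM in S and 17.7 and 4.17 in G2/M (3.12 ± 0.64). Cdt1-201 (2.92 ± 0.57) and Mcm5-205 (2.86 ± 0.68) were the next. In G2/M, Tuba1c-201 led with 540 and 290 CPM against 11.6 and 12.5 in S (-4.91 ± 0.42), followed by Cenpa-202 (-3.77 ± 0.31), Cdc20-201 (-3.73 ± 0.26), Cep89-201 and Cenpa-205 (-3.44 ± 0.28). Cep89-201 had 39 UMIs in G2/M and 3 in S, a ratio of 14.3 with a counting interval of 4.55 to 72.4. Cenpa, Psrc1 and Mcm5 each had 2 called isoforms, and no gene had called isoforms in both directions.

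Whether the phases chose different isoforms of a gene is a question the rule did not use. With diffSpliceDGE of edgeR, 0 of 349 genes with at least 2 tested isoforms (0.0%) were called at an adjusted p under 0.05, and 13 (3.72%) had an unadjusted p under 0.05. The Simes test also called 0, with 6 genes at an unadjusted p under 0.05. With the aliquot as a block it was again 0, with 14 genes at an unadjusted p under 0.05 and a smallest adjusted p of 0.0977. Among the 35 tested genes of the cell cycle lists or the rule, 3 had an unadjusted p under 0.05. They were Dut, Ezh2 and Ran, named after their values were seen.

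At this depth the isoform shares of the phases lay close together. In 314 tested genes with at least 50 UMIs in each phase, the share of the most abundant isoform differed between S and G2/M by a median of 2.31 percentage points and by 10.8 points or less in 9 of 10 genes. Between the aliquots of the same phase, which hold fewer UMIs than the pooled phases, the median difference was 5.47 points. The largest difference between phases, 27.1 points in Vrk1, rested on 61 and 53 UMIs. Over 10 points were reached by 35 genes, 27 of them in the same direction in both aliquots. These genes were picked on the pooled difference, which is made of the same aliquots, so agreement in direction was favoured. Differences of a few points in genes with few UMIs were not detectable here, and larger ones were not called either. Mpped2-202 differed by 17.6 points on 297 UMIs in S and 285 in G2/M (diffSpliceDGE, adjusted p = 0.419). The 0 calls therefore do not show that the shares were equal.

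**Figure D5:**
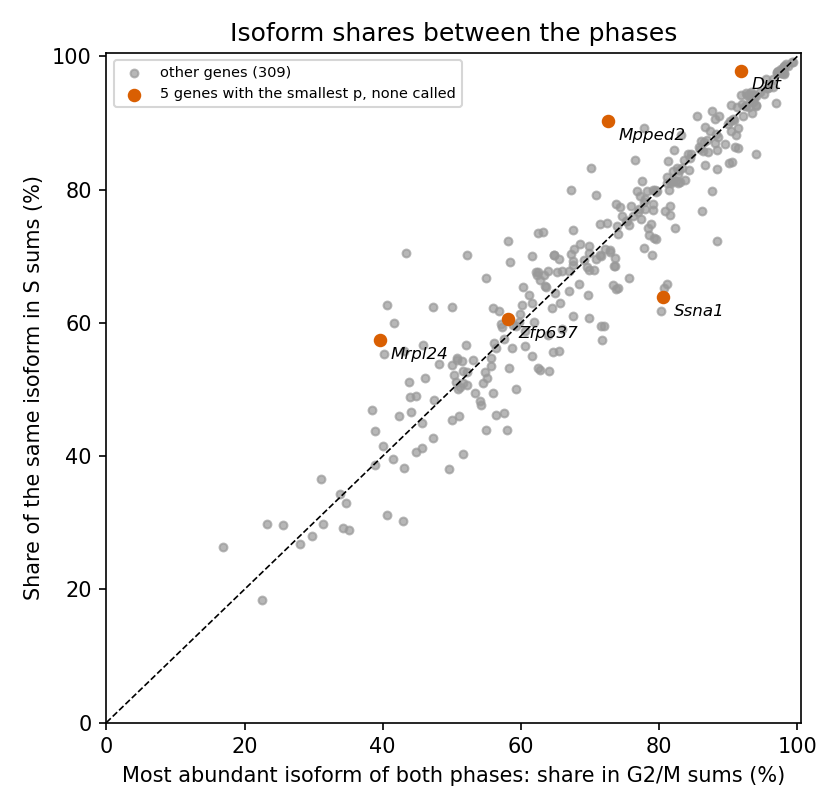
Share of each gene's most abundant isoform in the G2/M sums (x axis, percent) and in the S sums (y axis, percent) for 314 genes with at least 50 UMIs in each phase, with the dashed line where they are equal. Most genes lie near the line; the 5 genes with the smallest unadjusted p, none of them called, are in orange.

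Of the 5 genes with the smallest p, none was called. Mpped2, a metallophosphodiesterase, had the smallest (unadjusted p = 0.00120, adjusted p = 0.419). Its longer isoform Mpped2-202, which ends further downstream, made 91.4% and 89.96% of its UMIs in the S sums of the 190- and 951-cell aliquot and 81.4% and 71.1% in G2/M, and 68.5% in the cells under the threshold. The level of its other isoform, Mpped2-201, was called higher in G2/M (-1.61 ± 0.40, adjusted p = 0.0293). Mrpl24-204, of a mitochondrial ribosomal protein, made 5.32% of 94 UMIs in S and 23.4% of 111 in G2/M. In Zfp637, a zinc finger gene, Zfp637-202 made 3.03% of 99 UMIs in S and 24.0% of 129 in G2/M. Ssna1-201, of a microtubule-associated protein, made 63.8% of 152 and 80.6% of 129.

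Dut produces a nuclear and a mitochondrial enzyme from alternative first exons, and was both called higher in S and among these 5 genes. Dut-201 made 94.6% and 98.9% of its UMIs in S and 97.1% and 90.8% in G2/M, so the aliquots differed in direction. Pooled, that is 593 of 606 UMIs in S and 191 of 208 in G2/M, a difference of 6.03 points (adjusted p = 0.963), with Dut-202 at 15.3% in cells under the threshold.

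Most genes of the cell cycle were read almost as a single isoform. Of 102 listed or rule genes with at least 50 UMIs in each phase, 63 had 95% or more of their UMIs in the major isoform, and 23 had at least 2 isoforms at 10% or more. Stmn1, a tubulin-binding protein and the most abundant of these 23, had Stmn1-201 at 88.8% of 4191 UMIs in S and 87.4% of 4208 in G2/M. H2afv, a variant of histone H2A, had H2afv-202 at 88.7% and 90.4%. In both the phases differed by under 2 points. In Stmn1 this was less than the aliquots differed, where S stood at 92.1% and 87.6%. In H2afv it was more, at 1.71 points between the phases, in the same direction in both aliquots, against a mean of 0.8 between the aliquots. Ran, the GTPase of nuclear transport and spindle assembly, had Ran-202 at 13.8% of 1287 UMIs in S and 8.64% of 1215 in G2/M (unadjusted p = 0.0467, adjusted p = 0.963).

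Others of the 23 had more balanced isoforms and again no call. Hmgb3-202 made 56.3% of UMIs in S and 56.4% in G2/M. Nasp, the histone chaperone, had Nasp-201 at 51.2% of 510 UMIs in S and 43.9% of 301 in G2/M, against 29.1% in cells under the threshold. Tmpo, which encodes lamina-associated polypeptide 2, had Tmpo-202 at 44.9% and 45.7%, against 14.8% in cells under the threshold. For both genes S and G2/M were closer to each other than to the cells under the threshold, a contrast that was not tested. Ezh2, the methyltransferase of Polycomb complex 2, had Ezh2-202 at 12.4% and 19.8%, Cdca8 had Cdca8-202 at 65.6% and 73.4%, and the condensin subunit Smc4 had Smc4-201 at 86.1% and 85.9%. Top2a, a gene of the cycling threshold, had Top2a-201 at 83.7% of 380 UMIs in S and 86.7% of 338 in G2/M. 2810417H13Rik was not analysed here at the level of isoforms.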

How the data were processed

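The authors ran Cell Ranger 2.0 (per the labels) on the mouse genome mm10 for each aliquot, and the deposited values are unnormalized UMI counts, by gene and barcode. They aligned the Nanopore reads with minimap2, assigned barcodes and UMIs with the Illumina data as a guide, and deposited UMI counts per Gencode isoform whose exon structure the molecule fully matched. Reads were poly(A)-primed at the 3′ end, so a truncated molecule could leave an isoform unassigned.

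Cells with at least 1400 genes were phased by the rule given in the results. Counts were summed per phase and aliquot, giving 4 sums. TMM scaling factors lay between 0.980 and 1.01 for Illumina genes and between 0.971 and 1.01 for Nanopore isoforms. The members and gene lists were chosen with earlier results of these data known. The rule's 12 genes entered the library sizes but were left out of the calls of gene and isoform levels. Top2a, a gene of the rule, was among the 349 genes tested for isoform usage. Tests used edgeR 4.0.16 in R 4.3.3 (filterByExpr, TMM, robust quasi-likelihood fit, diffSpliceDGE for isoform usage), and DESeq2 1.42.0 was an alternative. Calls had a Benjamini-Hochberg adjusted p under 0.05, and fold changes are S minus G2/M. The SE after each ± was derived from the test, as the absolute log2 fold change divided by the square root of the F statistic. It is not a spread measured between the aliquots. Doublets were called with Scrublet in scanpy 1.11.5. The scripts were tested on simulated data.

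The aliquots of the S and G2/M sums share an emulsion aliquot and a library, so the aliquot number pairs them. Deviations of the sums of the same aliquot correlated at 0.344 over 3808 genes and 0.113 over 2083 isoforms. The fit without the block was kept as the main one, although it leaves this pairing out. The authors describe no fit on such sums, and for clustering they integrated the 2 replicates because their depth differed. The number called with the block is given beside the counts of genes, lists and isoforms that it moved.

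Genes named were the 10 largest called fold changes in each direction with the same direction in both aliquots and at least 30 UMIs in the higher phase, the 3 most abundant and any called member of each list, the 5 largest called isoforms in each direction, the 5 smallest usage p-values since none was called, the 10 listed genes with most UMIs and 2 isoforms at 10% or more, and genes said to be chosen otherwise. A called gene and a promoter stretch that these rules name are not reported here.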

Additional observations from a re-analysis of the deposited data

How the results depend on the processing

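Counts of called Illumina genes moved with the fit, and the directions of the 70 did not. Against 70 genes, DESeq2 called 42, no filter on low counts 173, the aliquot as a block 275, cells thinned to 5000 UMIs 45, no called doublets 148 and no ventral-marker cells 18. Without the shared barcodes the count was 117 and without the cells over 50000 UMIs 109, both settings chosen after seeing the data. Leaving out 1 sum at a time left a lone sum in a phase, which was then assumed to vary like the other phase. Each of these fits lost some of the 70 calls. With size factors in place of TMM the count was 65. In every one of these settings each of the 70 that could be tested had the same direction. An aliquot alone allows no test, and there too all 70 had the same direction. The 70 were called from these same sums, so this agreement in direction is not independent of the calls. Several settings also leave fewer cells and genes. The causes of the moves in the counts were not tested.

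Of 110 isoforms, DESeq2 called 34, no filter 68, the block 197 and the fits without 1 sum between 43 (without the S sum of the 951-cell aliquot) and 168 (without the G2/M sum of the 190-cell aliquot). Nanopore gene sums gave 140 calls, 204 with the block and 48 to 178 without 1 sum, the lowest without the S sum of the 951-cell aliquot. Isoform usage had 0 calls in every setting run. Median genes per cell, 3128 in S and 3240 in G2/M, became 2029 and 2032 after thinning. Without ventral-marker cells, 51 of the 67 called genes that could be tested lost the call. With the DESeq2 Wald test 30 of 70 lost it, and with cells thinned to 5000 UMIs 26 of 64. The loss was 9 of 69 without intermediate progenitor-marker cells and 5 of 70 with size factors in place of TMM. With the cells under the threshold also in the fit it was 8 of 70. Depth limits the usage test to 349 genes.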
